A study of Mus musculus with 2 samples.

Results

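The genes for the subunits, assembly factors and activators of the mouse proteasome were described across the cell classes of the hippocampus and between 2 genotypes. The members were all genes listed in both libraries whose symbol is Psma, Psmb, Psmc, Psmd, Psme, Psmf or Psmg followed by digits only, which gave 46 of the 12744 genes listed in both. They fell into 7 alpha ring subunits, 4 structural beta subunits, 3 constitutive catalytic subunits (Psmb5, Psmb6 and Psmb7), 3 immunoproteasome catalytic subunits (Psmb8, Psmb9 and Psmb10), 6 base ATPases, 11 other regulatory subunits, 7 assembly chaperones, and 5 activators and inhibitors. Psma8 and Psmb11 were not analysed here. Single cells came from the hippocampus of GlaKO mice aged 57 weeks and of wt littermates of the same age. GlaKO is a model of Fabry disease that lacks the lysosomal enzyme alpha-galactosidase A. Each genotype was 1 library, and the labels do not state how many animals a library holds. All animals were anaesthetised with xylazine and ketamine and perfused with saline. Hippocampi were dissociated with enzymes, cleared of debris on a gradient and sorted with the dye 7-AAD to remove dead cells, so the cells are those that survive this handling.

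The proteasome is the main protease of the cytosol and nucleus. Its barrel, the 20S core, is built of alpha and beta rings, and 3 of the beta subunits carry the cutting sites. A cap with a ring of ATPases recognises proteins tagged with ubiquitin, unfolds them and feeds them into the barrel. Interferon induces alternative catalytic subunits, Psmb8, Psmb9 and Psmb10, which take the places of Psmb5, Psmb6 and Psmb7 in newly built cores. The resulting immunoproteasome favours peptides that fit MHC class I molecules, and Psme1 and Psme2 form the PA28 ring that opens the core in the same setting. Immune cells make these subunits without added interferon, whereas neurons are known for the constitutive form.

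Psmb8 and Psmb9 lie in the MHC class II region of chromosome 17 beside the peptide transporter genes Tap1 and Tap2, and the other catalytic genes lie elsewhere. In the GENCODE vM21 annotation of GRCm38, the build that the files call mm10, Psmb8 spans chr17:34197721-34201454 on the plus strand. Psmb9 spans chr17:34181987-34187764 on the minus strand, and its model overlaps that of Tap1 on the opposite strand (a gap of -212 bases). Psmb10 spans chr8:105935735-105938444 and Psmb5 spans chr14:54614119-54618022, both on the minus strand. Antisense genes overlap Psmb8 (Gm20496) and Psmb10 (Gm16156), so their reads are uncertain if strand was not used in counting. Psme1 and Psme2 lie on chromosome 14, on opposite strands, with 5911 bases between their models. The 250 bases before the RefSeq start (GRCm38.p6) of the 3 immunoproteasome genes and of Psmb5 are shown because these 4 genes carry the contrast between classes described here. Capitals mark matches to any of 3 motifs: the core of the interferon-stimulated response element (GAAANNGAA), the gamma-activated site (TTCNNNGAA) and the core of the antioxidant response element (TGACNNNGC). Both strands were searched.
Psmb8: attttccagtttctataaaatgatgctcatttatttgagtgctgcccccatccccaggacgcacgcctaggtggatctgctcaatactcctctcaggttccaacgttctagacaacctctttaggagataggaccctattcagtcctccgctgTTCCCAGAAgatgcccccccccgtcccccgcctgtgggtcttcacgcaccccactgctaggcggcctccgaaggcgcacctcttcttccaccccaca
Psmb9: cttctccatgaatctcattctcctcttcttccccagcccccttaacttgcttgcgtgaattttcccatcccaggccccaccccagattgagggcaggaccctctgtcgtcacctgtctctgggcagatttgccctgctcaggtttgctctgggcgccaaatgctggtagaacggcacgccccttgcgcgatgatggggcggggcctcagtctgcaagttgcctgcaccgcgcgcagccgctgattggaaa
Psmb10: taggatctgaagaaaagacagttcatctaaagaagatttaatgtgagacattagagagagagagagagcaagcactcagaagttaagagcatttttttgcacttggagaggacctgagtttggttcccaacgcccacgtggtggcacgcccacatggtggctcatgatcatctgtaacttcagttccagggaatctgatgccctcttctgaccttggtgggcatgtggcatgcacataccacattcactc
Psmb5: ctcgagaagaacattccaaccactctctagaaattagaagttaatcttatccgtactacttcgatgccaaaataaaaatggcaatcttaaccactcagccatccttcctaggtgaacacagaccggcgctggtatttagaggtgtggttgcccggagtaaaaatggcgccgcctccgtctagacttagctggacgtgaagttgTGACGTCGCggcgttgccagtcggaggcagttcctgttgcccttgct
These windows are chr17:34197945-34198194 (plus strand) for Psmb8, chr17:34187331-34187580 (minus strand) for Psmb9, chr8:105938393-105938642 (minus strand) for Psmb10 and chr14:54617996-54618245 (minus strand) for Psmb5, each written 5′ to 3′ along its gene. Psmb8 holds 1 gamma-activated site, TTCCCAGAA, 97 to 89 bases before the start. Psmb5 holds 1 antioxidant element core, TGACGTCGC, 47 to 39 bases before the start. None of the 3 letter patterns occurs in the windows of Psmb9 and Psmb10. The windows of Psmb8 and Psmb9 lie wholly inside the GENCODE spans given above, after the GENCODE start of each gene. Bases before those GENCODE starts were not searched. Of all 46 members, 39 matched a RefSeq promoter entry, with 42 entries. The response element core occurred in 3 of the 42 member entries (Psmb3, Psmd4 and Psmd9), against 7.13% of 32851 promoter entries. The gamma-activated site occurred in 2 (Psmb8 and Psmg1), against 7.02% of all entries, and the antioxidant core in 5 (Psmb5, Psmb6, Psmc6, Psmd12 and Psmd9), against 10.2%. A match describes letters in the window and is not evidence of a bound site.

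After the removal of called doublets, 4502 GlaKO cells and 5418 wt cells were kept, with medians of 6101 and 5054 unique molecular identifiers (UMIs) per deposited barcode. Clusters were named from marker lists, and 7 classes held at least 100 cells in each library: choroid plexus epithelium (800 GlaKO and 2608 wt cells), oligodendrocytes (1348 and 852), oligodendrocyte precursors (OPC, 446 and 374), astrocytes (434 and 393), microglia (720 and 442), T cells (209 and 169) and neurons (372 and 327). Border macrophages (46 and 34), B cells (19 and 13), endothelium (27 and 101) and pericytes or smooth muscle (14 and 33) are given for the catalytic subunits only. Gla itself had 219 UMIs in GlaKO cells and 396 in wt cells, a log2 ratio of -0.74 (95% interval -0.99 to -0.50), so 3' tags of the targeted gene were lower over all cells but present. Within classes the log2 ratio was -1.23 (-1.76 to -0.74) in choroid plexus, -1.77 (-2.68 to -0.92) in precursors and -0.76 (-1.46 to -0.07) in microglia. The interval included 0 in oligodendrocytes (65 GlaKO and 38 wt UMIs, -0.10), astrocytes (16 and 15, -0.25), T cells (5 and 8, -1.36) and neurons (29 and 15, 0.41), so in these 4 classes Gla does not check the labels. Whether the tags lie outside the deleted part is not stated in the labels. The libraries shared 6 cell barcodes. Levels are UMIs of a gene per 1000000 UMIs of a class in a library (CPM). Intervals are exact 95% intervals for counting error only, because 1 library per genotype leaves no replicate spread and no test. Genotype and library cannot be told apart, and every difference given here is one between 2 libraries.

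**Figure D1:**
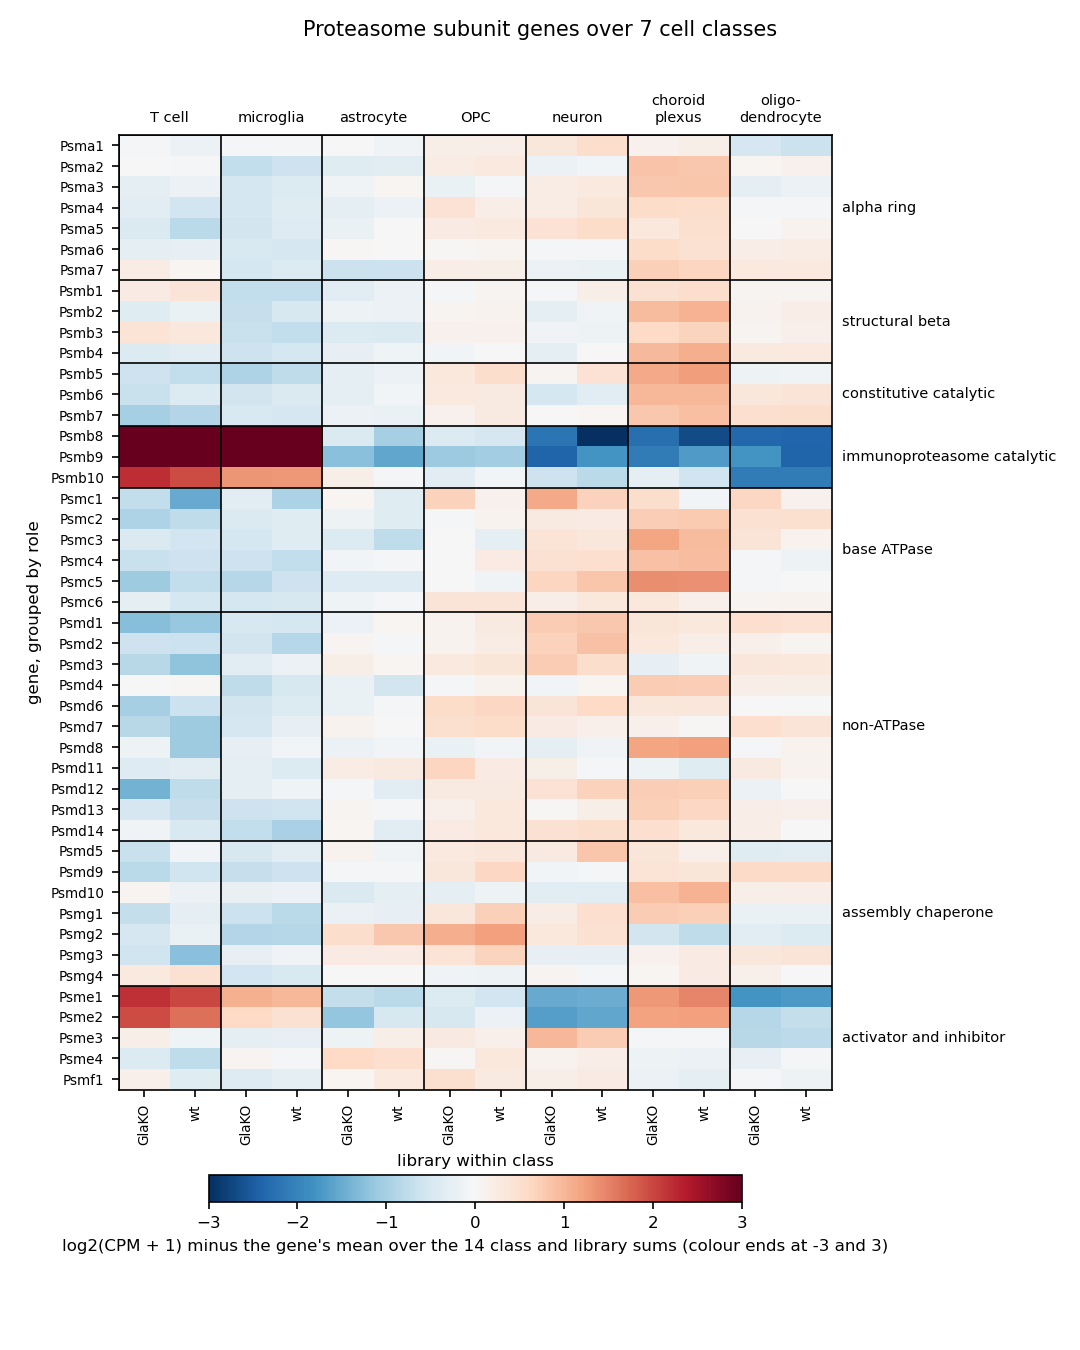
Each row is 1 of the 46 genes, grouped by role, and each pair of columns is 1 of 7 cell classes with GlaKO left of wt; colour is log2(CPM + 1) minus the gene's mean over the 14 class and library sums, cut at -3 and 3. Psmb8, Psmb9, Psmb10, Psme1 and Psme2 vary far more between classes than the other rows, and the 2 columns of a class resemble each other.

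Proteasome transcripts as a whole were most abundant in choroid plexus epithelium, the secretory epithelium that makes cerebrospinal fluid. The 46 genes together reached 8695 CPM in GlaKO and 8687 CPM in wt choroid plexus cells. The other 6 classes lay between 4195 and 6341 CPM in GlaKO cells and between 4342 and 6068 CPM in wt cells, with microglia lowest in both libraries. Of the 46 members, 24 in GlaKO and 21 in wt were highest in choroid plexus among the 7 classes, and 39 members had the same highest class in both libraries. T cells and microglia together were the lowest class for 36 members in GlaKO and 34 in wt. The shares of all genes with these highest or lowest classes are not given, so nothing particular to the members is read from these counts. The free RNA of lysed cells adds a low level of every gene to every class, and it was not subtracted.

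Most members differed little between classes. For the 43 members outside the immunoproteasome trio, the highest of the 7 classes exceeded the lowest by a median of 2.8-fold in GlaKO and 2.82-fold in wt. Over all genes with at least 100 UMIs in each library and a UMI in every class, that median was 8.33-fold in GlaKO (10937 genes) and 7.97-fold in wt (10353 genes). Psme1, a PA28 subunit, spanned 16.3-fold in GlaKO and 13.6-fold in wt. The trio stood apart as a description of these libraries: Psmb10 spanned 22-fold in GlaKO and 18.5-fold in wt, Psmb8 spanned 266-fold in GlaKO, and Psmb9 spanned 416-fold in wt, which rests on 4 UMIs in wt oligodendrocytes (0.807 CPM, 0.22 to 2.07) and is imprecise. The level of Psmb9 in GlaKO neurons and of Psmb8 in wt neurons rested on 2 and 3 UMIs, and no fold is given for them.

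T cells held the most immunoproteasome RNA. Psmb8, Psmb9 and Psmb10 summed to 1525 CPM (1455 to 1597) in GlaKO and 1381 CPM (1298 to 1469) in wt T cells. Border macrophages followed with 1072 CPM (956 to 1197) in GlaKO and 1091 CPM (957 to 1240) in wt, and B cells with 989 CPM (797 to 1215) in GlaKO and 818 CPM (623 to 1055) in wt. The intervals of border macrophages and B cells overlapped in each library, so their order is not resolved, while T cells lay above both. Microglia, the resident macrophages of the brain, held 436 CPM in GlaKO and 437 CPM in wt. Endothelium had 150 CPM (87.3 to 240) in GlaKO and 277 CPM (225 to 337) in wt, and pericytes or smooth muscle, with 6 and 9 UMIs, had 135 CPM (49.5 to 294) and 83.5 CPM (38.2 to 158). The order of these 2 small classes is not resolved in GlaKO. Astrocytes had 67.1 CPM in GlaKO and 53.8 CPM in wt, precursors 53.6 and 58.7 CPM, choroid plexus 39.1 and 32.2 CPM, neurons 32.1 and 27.1 CPM, and oligodendrocytes 14.4 and 13.3 CPM. Astrocytes and precursors overlapped in their intervals in each library, as did choroid plexus and neurons, while oligodendrocytes lay below all of them.

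Psmb8, the immunoproteasome counterpart of Psmb5, was the most abundant of the trio in every immune class. Its level was 939 CPM in GlaKO and 878 CPM in wt T cells, 604 and 638 CPM in border macrophages, 500 and 485 CPM in B cells, and 238 and 232 CPM in microglia. In the 5 remaining large classes it ranged from 3.53 to 16.5 CPM in GlaKO and from 1.77 to 15.2 CPM in wt. A Psmb8 UMI was seen in 96.7% of GlaKO and 94.7% of wt T cells, and in 69.7% of GlaKO and 58.6% of wt microglia. Oligodendrocytes, which have little of it, showed a UMI in 1.71% of GlaKO and 1.76% of wt cells at median depths of 6696 and 5818 UMIs, and neurons in 2.42% of GlaKO and 0.917% of wt cells at 5813 and 4575 UMIs. How much of these low shares is free RNA was not tested. With each cell reduced to 1000 UMIs, the expected share of microglia with a Psmb8 UMI was 20.1% in GlaKO and 18.8% in wt, a smaller gap than at full depth, where GlaKO microglia had a median of 6424 and wt microglia of 5367 UMIs.

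Psmb9, the counterpart of Psmb6, followed the same order at a lower level. It reached 385 CPM in GlaKO and 336 CPM in wt T cells, and 90.7 CPM in GlaKO and 99.2 CPM in wt microglia. In every large class that is not an immune class it stayed at or below 3.51 CPM in GlaKO and 3.63 CPM in wt. Psmb10, the counterpart of Psmb7, was spread more widely. It had 201 CPM in GlaKO and 168 CPM in wt T cells and 107 and 106 CPM in microglia. Astrocytes still held 47.9 CPM in GlaKO and 40.9 CPM in wt, choroid plexus 34.1 and 27.7 CPM, precursors 33.6 and 39.9 CPM, neurons 27.2 and 23.6 CPM, and oligodendrocytes 9.15 and 9.08 CPM.

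The ratio within the trio differed between classes. Choroid plexus held 252 Psmb10 and 28 Psmb8 UMIs in GlaKO, and 506 and 47 UMIs in wt. T cells held 237 Psmb10 and 1106 Psmb8 UMIs in GlaKO, and 123 and 643 UMIs in wt. Psmb10 was thus the more abundant of the pair in choroid plexus and the less abundant in T cells. Marker genes of T cells summed to 11 CPM in GlaKO and 8.61 CPM in wt choroid plexus cells, against 15521 and 15373 CPM in T cells.

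**Figure D2:**
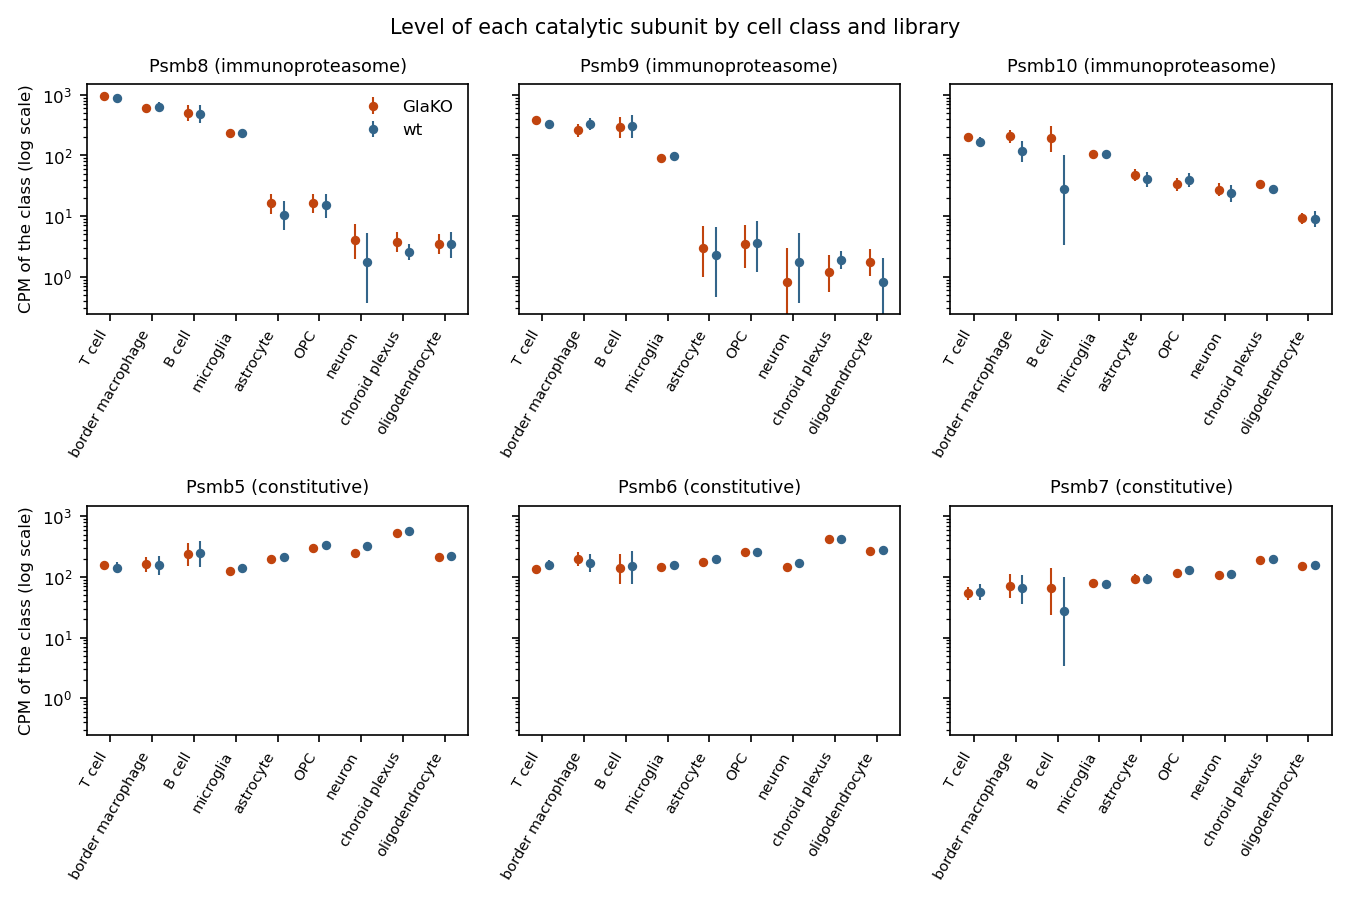
Level in CPM, on a log axis, of each catalytic subunit in 9 cell classes with GlaKO (orange) left of wt (blue); points are summed levels and bars exact 95% Poisson intervals, and the interval of Psmb9 in GlaKO neurons and wt oligodendrocytes runs below the axis. Psmb8 and Psmb9 are far lower in the classes to the right of microglia, Psmb10 falls off more gently, and the constitutive subunits are highest in choroid plexus.

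The constitutive catalytic subunits had another order among the large classes, with choroid plexus highest and the 2 immune classes lowest. Psmb5, Psmb6 and Psmb7 summed to 1143 CPM in GlaKO and 1187 CPM in wt choroid plexus, 672 and 727 CPM in precursors, 635 and 654 CPM in oligodendrocytes, 508 and 603 CPM in neurons, and 468 and 504 CPM in astrocytes. Microglia had 348 CPM in GlaKO and 373 CPM in wt, and T cells 343 CPM (310 to 378) and 360 CPM (318 to 407), so the lowest places were not resolved. Psmb5, which carries the chymotrypsin-like site, was highest in choroid plexus, at 528 CPM in GlaKO and 565 CPM in wt. Its lowest values were in microglia, at 125 CPM (115 to 136) in GlaKO and 140 CPM in wt. T cells had 155 CPM (134 to 180) in GlaKO and 143 CPM (117 to 174) in wt, so the lowest place was not resolved. Psmb6, with the caspase-like site, ranged from 134 to 427 CPM in GlaKO and from 157 to 423 CPM in wt. Psmb7, with the trypsin-like site, was the least abundant of these 3, from 53.5 to 188 CPM in GlaKO and from 57.3 to 199 CPM in wt. Named processed pseudogenes exist for all 3 (Psmb5-ps, Psmb6-ps, Psmb6-ps2 and Psmb7-ps2), so some of their reads may have been assigned ambiguously.

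Set against each other, the immunoproteasome subunits made up most catalytic UMIs in immune cells and few elsewhere. Their share of all catalytic UMIs was 81.6% (80 to 83.2) in GlaKO and 79.3% (77 to 81.5) in wt T cells. It was 71.2% in GlaKO and 73.5% in wt border macrophages, 68.9% and 65.6% in B cells, and 55.6% (54 to 57.2) and 54% (51.7 to 56.2) in microglia. Endothelium had 16.3% (9.82 to 24.9) in GlaKO and 27.3% (22.8 to 32.2) in wt. Astrocytes had 12.5% in GlaKO and 9.65% in wt, precursors 7.38% and 7.48%, neurons 5.94% and 4.3%, choroid plexus 3.31% and 2.65%, and oligodendrocytes 2.22% and 2%. Since tags come from the 3' end, a UMI carries no length factor, but capture can differ between genes, and a share of UMIs is no measure of how many immunoproteasomes a cell holds.

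The immune share of UMIs differed between the 3 pairs in microglia, and the part of capture in this was not tested. Psmb8 made up 65.5% (63.2 to 67.8) of its pair with Psmb5 in GlaKO and 62.3% (59 to 65.4) in wt. Psmb10 made up 57.8% (54.5 to 61.1) of its pair with Psmb7 in GlaKO and 58.5% (53.8 to 63.2) in wt. Psmb9 made up 38.6% (35.7 to 41.5) of its pair with Psmb6 in GlaKO and 38.7% (34.9 to 42.7) in wt, so Psmb6 had more UMIs. In T cells each pair was mostly of the immune form: 85.8% in GlaKO and 86% in wt for Psmb8, 74.1% and 67.8% for Psmb9, and 79% and 74.5% for Psmb10. In the 5 other large classes the Psmb10 pair had the highest immune share of the 3 pairs, for example 33.8% in GlaKO and 30.7% in wt astrocytes and 15.4% and 12.2% in choroid plexus, where the Psmb8 pair had 0.713% and 0.454%.

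**Figure D3:**
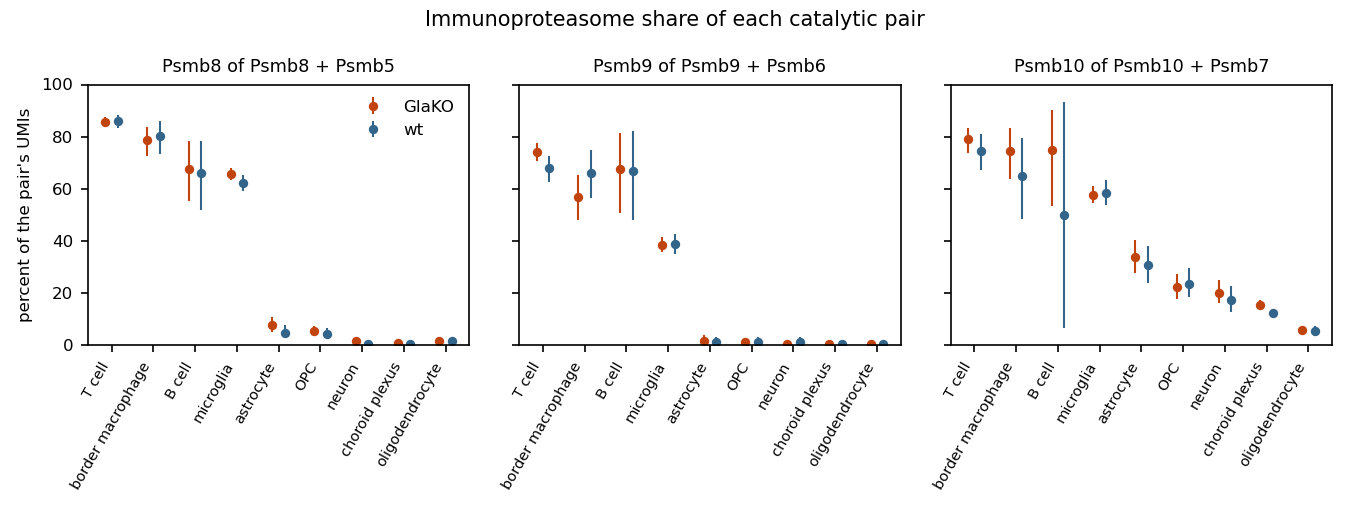
Percent of a pair's UMIs that came from the immunoproteasome subunit, in 9 cell classes with GlaKO (orange) left of wt (blue) and exact 95% Clopper-Pearson intervals. The step between microglia and astrocytes is steep for the Psmb8 and Psmb9 pairs and gradual for the Psmb10 pair.

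The PA28 subunits were abundant in immune cells and also in choroid plexus. Psme1 had 532 CPM in GlaKO and 468 CPM in wt T cells, 481 and 518 CPM in border macrophages, 287 and 318 CPM in choroid plexus, and 242 and 229 CPM in microglia. Psme2 had 292 CPM in GlaKO and 239 CPM in wt T cells, 173 and 176 CPM in choroid plexus, and 114 and 104 CPM in microglia. Choroid plexus thus held more Psme1 than microglia did, beside the low trio levels given before. Neurons and oligodendrocytes were lowest for Psme1, with 39.8 CPM in GlaKO and 40.1 CPM in wt neurons and 32.6 and 34.3 CPM in oligodendrocytes. Emc9 overlaps Psme1 on the other strand, and whether the counting used strand is not stated in the labels.

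The remaining activators and the inhibitor had another order. Psme3, the nuclear PA28 gamma subunit, was highest in neurons, at 51.2 CPM in GlaKO and 43.6 CPM in wt, and lowest in oligodendrocytes, at 13.9 and 14.3 CPM. Psme4, which encodes the nuclear activator PA200, was highest in astrocytes, at 60.5 CPM in GlaKO and 56.8 CPM in wt. Psmf1, which encodes the inhibitor PI31, was the least abundant gene of this group over all cells, at 18.9 CPM in GlaKO and 17.3 CPM in wt.

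The alpha ring and structural beta genes form the walls of the core and differed little between classes. The 7 alpha subunits had folds between classes of 1.81 (Psma1) to 3.04 (Psma2) in GlaKO and 1.93 (Psma6) to 2.72 (Psma2) in wt. Over all cells Psma3 was the most abundant of them, at 294 CPM in GlaKO and 392 CPM in wt, and Psma1 the least, at 109 and 119 CPM. Psmb1, the most abundant structural beta gene over all cells (303 CPM in GlaKO, 363 in wt), had 345 CPM in GlaKO and 385 CPM in wt T cells, second to choroid plexus with 400 and 420 CPM. Psmb3 was the least abundant of the 4 (195 CPM in GlaKO, 237 in wt). In T cells Psmb1 was thus more than 2 times as abundant as Psmb5, with 155 CPM in GlaKO and 143 CPM in wt.

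The 6 ATPases of the base unfold the substrate. Psmc5 was the most abundant over all cells, at 226 CPM in GlaKO and 322 CPM in wt, and had 445 and 438 CPM in choroid plexus against 79.8 and 99.7 CPM in T cells. Psmc6 differed least between classes, by 1.9-fold in each library. Psmc1 was the least abundant over all cells, at 106 CPM in GlaKO and 72.4 CPM in wt, and was highest in neurons. Among the other 11 regulatory subunits, Psmd3 had the lowest level over all cells, at 66.5 CPM in GlaKO and 62.5 CPM in wt. Psmd4, a ubiquitin receptor, was highest in GlaKO at 191 CPM and had 231 CPM in wt, where Psmd8 was higher at 260 CPM and had 186 CPM in GlaKO. Psmd1, a scaffold of the base, was highest in neurons, with 152 CPM in GlaKO and 156 CPM in wt, against 35.7 and 39.6 CPM in T cells.

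Assembly chaperones, which help to build the particle and leave it, were found at low levels. Psmd9 led them over all cells, at 60.7 CPM in GlaKO and 64.2 CPM in wt, and Psmd5 was lowest, at 26.9 and 29.9 CPM. Psmg2, which pairs with Psmg1 to build the alpha ring, was highest in oligodendrocyte precursors, with 104 CPM in GlaKO and 115 CPM in wt, against 25.8 and 26.4 CPM in microglia. Psmg1 was highest in choroid plexus in GlaKO, at 50.7 CPM, and there had 49.2 CPM in wt, where precursors had 49.3 CPM.

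Within choroid plexus the proteasome level differed between clusters, along with the mitochondrial share and the depth. The cluster with the lowest median mitochondrial share, 0.482% in GlaKO and 0.412% in wt, held 9920 CPM of member transcripts in GlaKO and 10482 CPM in wt. The intermediate cluster (1.41% and 2.4% mitochondrial) held 8592 and 8786 CPM. The cluster with the highest share (2.7% and 4.32%) held 6937 and 6921 CPM. The order was the same in both libraries. Median depth fell in that order, with 9741, 9004 and 7153 UMIs in GlaKO and 7008, 6007 and 5375 in wt. The parts of the mitochondrial RNA and of depth in the member levels were not tested.

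Over the 14 profiles of 7 classes in 2 libraries, the genes most like the summed trio in log2(CPM + 1) were Gpr65 (Pearson r = 0.98), Lsp1 (0.98), Prdm1 (0.97), B2m (0.97), H2-Q4 (0.97), Tmem71 (0.97), Akna (0.965), Slfn2 (0.965), Epsti1 (0.965) and Cd274 (0.96), of 12739 genes ranked. B2m and H2-Q4 encode parts of MHC class I molecules, whose peptides the immunoproteasome helps to supply. Tap1 had r = 0.95, Psme1 0.79 and Psme2 0.69. Psmb5 (-0.65), Psmb6 (-0.61) and Psmb7 (-0.87) ran the other way. These values describe classes that share libraries and depth, most of the contrast is between immune cells and the rest, and no p-value belongs to them.

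Between genotypes, the members as a set were nearly level within each class when its clusters were pooled. A member was compared in a class where both libraries together held at least 100 of its UMIs, and 288 of 322 pairs of member and class met this. The median log2 ratio of GlaKO over wt was 0.02 over 44 members in choroid plexus, 0.00 over 44 in oligodendrocytes, -0.08 over 42 in precursors, 0.02 over 38 in astrocytes, -0.07 over 46 in microglia, 0.09 over 33 in T cells and -0.10 over 41 in neurons. Over all genes compared it was 0.06, 0.03, 0.01, 0.00, -0.02, 0.06 and 0.00 in the same classes. The summed level of all members differed little: 5565 CPM in GlaKO and 5547 CPM in wt oligodendrocytes, 4647 and 4668 CPM in astrocytes, and 5696 and 6068 CPM in neurons, where the log2 ratio was -0.09 (-0.13 to -0.05). Of the 30 members compared in all 7 classes, Psma3 and Psmb4 were lower in GlaKO in all 7, with log2 ratios of -0.17 to -0.04 and -0.26 to -0.002, and none was higher in all 7. Of 1844 genes compared in all 7 classes, 5.15% were lower in all 7 and 9% were higher in all 7.

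Few members differed by the size used here in place of a test, at least 25% higher or at least 20% lower in GlaKO, which is the same fold in both directions. Higher by that much were 1 of 44 members in choroid plexus (16.2% of all 9435 genes compared), 1 of 44 in oligodendrocytes (7.9% of 8637), 2 of 42 in precursors (10.3% of 6863) and 4 of 38 in astrocytes (10.6% of 5533). The same count was 1 of 46 in microglia (8.22% of 7115), 3 of 33 in T cells (19.3% of 2512) and 1 of 41 in neurons (11.2% of 7328). Lower by that much were 0 members in choroid plexus (8.77% of all genes), 0 in oligodendrocytes (5.05%), 2 in precursors (7.71%), 1 in astrocytes (8.1%), 0 in microglia (8.56%), 1 in T cells (7.88%) and 2 in neurons (8.9%). At these settings no class had a members' share past that size, in either direction, above the share among all genes. With clusters weighted equally, 10 of 46 members were lower and 7 higher in microglia, against 20.6% and 20% of all genes at that setting. With cells thinned to 1000 UMIs, 8 of 33 members were lower in T cells (18.1% of all genes) and 9 of 38 in neurons (21.4%). The minimum for a comparison was then 20 summed UMIs.

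**Figure D4:**
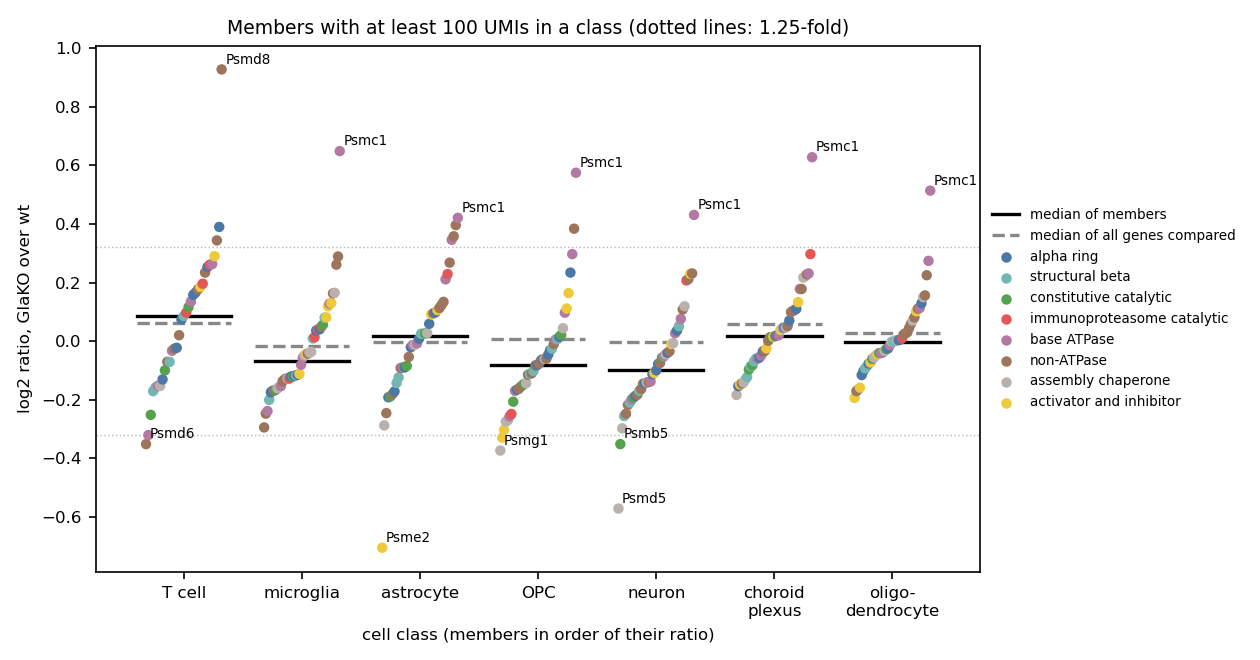
Log2 ratio of GlaKO over wt for each member with at least 100 UMIs in a class, in order within the class and coloured by role; black bars are medians of members, grey dashed bars medians of all genes compared, and dotted lines mark 25% higher and 20% lower. Medians of members lie between -0.10 and 0.09, and Psmc1 is the highest member in 6 classes.

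Psmc1, the Rpt2 ATPase whose tail opens the gate of the core, was the exception in all classes where it could be compared. It had 111 CPM in GlaKO and 71.7 CPM in wt choroid plexus, 118 and 83 CPM in oligodendrocytes, and 124 and 83.4 CPM in precursors. Astrocytes had 79.1 CPM in GlaKO and 59.1 CPM in wt, microglia 61.5 and 39.3 CPM, and neurons 168 and 124 CPM. The level was higher in GlaKO in all 6. The log2 ratios were 0.63 (0.50 to 0.76), 0.51 (0.35 to 0.68), 0.58 (0.25 to 0.91), 0.42 (0.01 to 0.84), 0.65 (0.31 to 1.00) and 0.43 (0.19 to 0.68) in that order. T cells had 53 UMIs in GlaKO and 19 in wt, under the 100 needed. Of 3792 genes compared in these 6 classes, 0.607% (23 genes) were at least 25% higher in GlaKO in all 6, and of the 37 members so compared only Psmc1 was. In microglia the ratio ranged from 0.25 with cells thinned to 1000 UMIs to 1.34 with clusters weighted equally.

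Psmc1 spans chr12:100110154-100123405 on the plus strand, and no other annotated gene overlaps it. Nrde2, the closest coding gene at 2046 bases, had log2 ratios between -0.69 and 0.26 in the 7 classes, and the interval of each included 0. With 1 library per genotype, the strain background, the individual animals and the library cannot be told apart for a difference of this kind.

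Other base and lid genes differed in some classes only. Psmc3, the Rpt5 ATPase, had 356 CPM in GlaKO and 303 CPM in wt choroid plexus (log2 ratio 0.23, 0.16 to 0.30), 206 and 170 CPM in oligodendrocytes (0.27, 0.16 to 0.39), 157 and 128 CPM in precursors (0.30, 0.03 to 0.57), and 117 and 92.4 CPM in astrocytes (0.35, 0.01 to 0.68), where it passed the 25% size. In microglia it had 109 CPM in GlaKO and 121 CPM in wt (-0.15, -0.36 to 0.06). In choroid plexus this value was 0.02 with cells thinned to 1000 UMIs and 0.10 with both libraries matched over 5 parts of depth. Slc39a13 overlaps Psmc3 on the other strand. Psmd14, the deubiquitinase of the lid, had 106 CPM in GlaKO and 90.6 CPM in wt oligodendrocytes (0.23, 0.06 to 0.39), and 94.7 and 71.9 CPM in astrocytes (0.40, 0.02 to 0.78). Psmd11, a lid subunit, had 171 CPM in GlaKO and 131 CPM in wt precursors (0.38, 0.12 to 0.65). Psmd4, a ubiquitin receptor, had 146 CPM in GlaKO and 114 CPM in wt astrocytes (0.36, 0.06 to 0.66). Among the 3 highest members of a class were also Psmd2, with 66.7 CPM in GlaKO and 54.5 CPM in wt microglia, and Psmd14, with 54.9 and 45.9 CPM there. In neurons these were Psmd3, with 105 CPM in GlaKO and 89.6 CPM in wt, and Psme3, with 51.2 and 43.6 CPM. The intervals of these 4 ratios included 0.

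The widest single difference was that of Psmd8, a lid subunit, in T cells. It had 156 UMIs or 132 CPM in GlaKO and 51 UMIs or 69.6 CPM in wt T cells, a log2 ratio of 0.93 (0.46 to 1.41). In the other 6 classes its level was lower in GlaKO, for example 142 CPM in GlaKO and 159 CPM in wt oligodendrocytes (-0.17, -0.29 to -0.04). The T cell value was 0.98 without the cell with most UMIs of the gene in each library, and 0.36 with cells thinned to 1000 UMIs. Psma5 had 100 CPM in GlaKO and 76.4 CPM in wt T cells, Psmd14 had 84.9 and 66.9 CPM, and Psmd6 had 53.5 and 68.3 CPM, but each of these intervals included equal levels.

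Some members had small differences toward lower levels in GlaKO. A log2 ratio below 0 was found for 30 of 42 members in precursors, 30 of 41 in neurons and 29 of 46 in microglia. Among all genes compared, 3356 of 6863, 3705 of 7328 and 3806 of 7115 were below 0 in the same classes. Over all classes, 21 of 288 member intervals lay below 0 and 24 above. Among all genes, 6.06% to 11.9% of the intervals in a class lay below 0 and 6.85% to 23.8% above. Below 0 were 14.6% of members against 9.13% of all genes in neurons, and 15.9% against 11.9% in choroid plexus. Above 0 were 10.5% of members against 6.85% of all genes in astrocytes. In every other class and direction the members' share was the smaller. In astrocytes Psme2 had 55 UMIs or 32.9 CPM in GlaKO and 71 UMIs or 53.8 CPM in wt, a log2 ratio of -0.71 (-1.24 to -0.18), while its partner Psme1 had 70.1 and 65.1 CPM. In neurons Psmd5, a base chaperone, had 33.7 CPM in GlaKO and 50.1 CPM in wt (-0.57, -1.03 to -0.12). Psmb5 had 253 CPM in GlaKO and 322 CPM in wt neurons (-0.35, -0.52 to -0.18). Neurons also had a lower constitutive sum in GlaKO, with a log2 ratio of -0.25 (-0.37 to -0.13). The 2 neuron clusters differed in makeup between libraries: the smaller held 94 GlaKO and 44 wt cells and had a median member ratio of 0.14, and the larger held 278 and 283 cells and had -0.12. Precursors also formed 2 clusters. One held 159 GlaKO and 111 wt cells, with 6901 and 7287 CPM of members and a median ratio of -0.11. The other held 287 and 263 cells, with 3759 and 4395 CPM and a median of -0.22 (-0.33 to -0.11). Both medians were lower than the pooled precursor median of -0.08. In precursors Psmg1 had 38.1 CPM in GlaKO and 49.3 CPM in wt, and Psme2 had 53.1 and 66.7 CPM, with intervals that included equal levels. In microglia the lowest members were Psmd4, with 97.3 CPM in GlaKO and 119 CPM in wt, Psmd7, with 93.3 and 111 CPM, and Psmc5, with 92.4 and 109 CPM. All 3 intervals lay below 0.

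The remaining members among the 3 lowest of a class differed less. In choroid plexus Psmg4, an assembly chaperone, had 57.8 CPM in GlaKO and 65.6 CPM in wt (-0.18, -0.35 to -0.02), Psma5 had 169 and 188 CPM (-0.15, -0.25 to -0.06), and Psme1 had a log2 ratio of -0.15 (-0.22 to -0.08). In oligodendrocytes Psmd12, a lid subunit, had 94.7 CPM in GlaKO and 107 CPM in wt (-0.17, -0.33 to -0.01), and Psme4 had 33.2 and 37.9 CPM, with an interval that included 0. The intervals also included 0 for Psme4 in precursors (40.6 CPM in GlaKO, 50 in wt), Psmg2 (70.1 and 85.6 CPM) and Psmd1 (77.9 and 92.4 CPM) in astrocytes, Psmc5 (79.8 and 99.7 CPM) and Psmb6 (134 and 160 CPM) in T cells, and Psmg1 in neurons (34.5 and 42.4 CPM).

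The immunoproteasome trio differed little between genotypes in the cells that make most of it. The log2 ratio of the sum was 0.00 (-0.11 to 0.10) in microglia and 0.14 (0.03 to 0.26) in T cells, where the alternatives tried gave 0.07 to 0.18. Relative to the constitutive trio, the log2 odds of GlaKO over wt were 0.10 (-0.07 to 0.26) in microglia and 0.21 (-0.04 to 0.47) in T cells, where the Psmb9 and Psmb6 pair alone had 0.45 (0.02 to 0.87). In choroid plexus the odds were 0.33 (0.12 to 0.54), carried by Psmb10, whose level was 34.1 CPM in GlaKO and 27.7 CPM in wt (log2 ratio 0.30, 0.07 to 0.52). In endothelium, with 27 GlaKO and 101 wt cells, they were -0.94 (-1.86 to -0.10). Astrocytes had 0.42 (-0.05 to 0.90), neurons 0.49 (-0.07 to 1.06), oligodendrocytes 0.16 (-0.29 to 0.61) and precursors -0.02 (-0.47 to 0.43).

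Over all cells of a library the values were further apart. The trio summed to 170 CPM in GlaKO and 106 CPM in wt cells, a log2 ratio of 0.69 (0.63 to 0.75), and the constitutive trio to 686 and 926 CPM, a ratio of -0.43 (-0.46 to -0.41). The shares of the classes differed in the same sense. Microglia were 16% of GlaKO and 8.16% of wt cells, T cells 4.64% and 3.12%, and choroid plexus 17.8% and 48.1%. TMM scaling moved every log2 ratio over all cells by -0.25. Dissection, dissociation and the sort can set the shares of classes, and their part was not tested.

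Members were also set against interferon genes among the cells of a class, first in microglia and T cells. The 10% of cells with the highest share of UMIs from a list of 27 interferon and antigen processing genes, none of them a member, were compared with the remaining cells of the same class and library. In GlaKO microglia the trio had 640 CPM in these 72 cells and 418 CPM in the other 648, a log2 ratio of 0.62 (0.42 to 0.81). In wt microglia it had 484 CPM in 44 cells and 432 CPM in 398, a ratio of 0.16 (-0.13 to 0.44). T cells had 2284 and 1471 CPM in GlaKO (0.64, 0.40 to 0.86), and 1846 and 1340 CPM in wt (0.46, 0.16 to 0.75), over 21 and 17 interferon-high cells. With the top 25% of cells in place of 10%, the wt ratios were -0.04 (-0.25 to 0.16) in microglia and 0.19 (-0.04 to 0.41) in T cells, so both intervals then included 0, while the GlaKO ratios were 0.41 (0.27 to 0.55) and 0.31 (0.15 to 0.47). The difference between the libraries was not tested. The trio also differed in this way outside the immune classes. With the top 10% of oligodendrocytes it had 54.6 against 11.1 CPM in GlaKO (2.30, 1.72 to 2.86). In wt oligodendrocytes it had 36.3 against 11.4 CPM (1.68, 0.71 to 2.55), on 14 and 52 UMIs. Choroid plexus went the other way, with ratios of -0.29 (-1.07 to 0.40) in GlaKO and -0.29 (-0.82 to 0.19) in wt.

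In GlaKO microglia PA28 was higher along with the trio, and the remaining members were level. In the interferon-high GlaKO microglia, Psme1 had 369 CPM against 230 CPM in the remaining cells (0.68, 0.42 to 0.94) and Psme2 had 177 against 108 CPM (0.71, 0.32 to 1.08). The constitutive trio had 315 against 351 CPM (-0.16, -0.44 to 0.11), and all other members 3825 against 3753 CPM (0.03, -0.05 to 0.10). In wt microglia the other members had 3677 against 3930 CPM, and in GlaKO T cells 5480 against 4769 CPM (0.20, 0.06 to 0.34). Interferon-high cells were shallower, with a median of 3541 against 6528 UMIs in GlaKO microglia, 4496 against 5393 in wt microglia, 3392 against 5187 in GlaKO T cells and 3245 against 4277 in wt T cells, and the part of depth was not tested. The class was cut from a continuous share, and 37 GlaKO and 27 wt microglia lay within 10% of the limit. Border macrophage markers summed to 939 CPM in GlaKO and 220 CPM in wt microglia. Their part in these ratios was not tested.

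**Figure D5:**
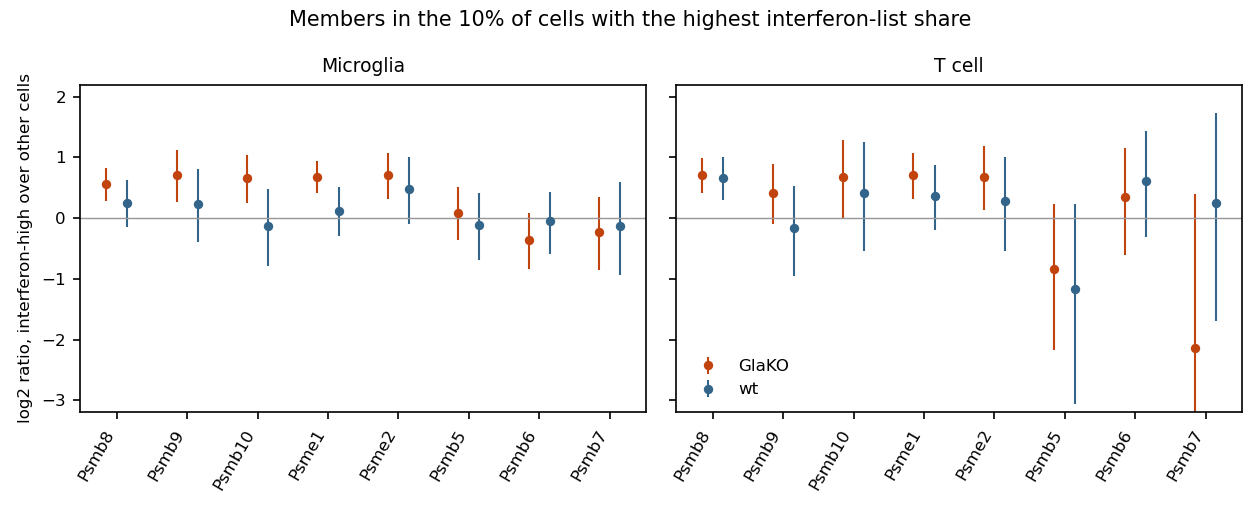
Log2 ratio of the level in the 10% of cells with the highest interferon-list share over the level in the remaining cells, for 8 members in microglia and T cells, with GlaKO (orange) left of wt (blue); bars are exact 95% intervals for counting error, and the lower end for Psmb7 in GlaKO T cells, at -7.46, lies outside the axis. In GlaKO microglia the immunoproteasome and PA28 genes lie above 0 and the constitutive ones around it.

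Of 32 listed genes that serve the proteasome pathway without being members, 30 were in both libraries. At least 25% higher in GlaKO were 3 of 30 in choroid plexus, 2 of 30 in oligodendrocytes, 0 of 26 in precursors, 0 of 26 in astrocytes, 2 of 29 in microglia, 1 of 19 in T cells and 3 of 28 in neurons. At least 20% lower were 1, 2, 1, 1, 2, 3 and 2 in the same order. Among all genes compared, the shares were 16.2%, 7.9%, 10.3%, 10.6%, 8.22%, 19.3% and 11.2% higher and 8.77%, 5.05%, 7.71%, 8.1%, 8.56%, 7.88% and 8.9% lower in that order, so the list is described and nothing particular to it is read from these counts. Nfe2l1, the factor that induces proteasome genes when proteasome activity is short, had 90 CPM in GlaKO and 67.4 CPM in wt choroid plexus (log2 ratio 0.42, 0.28 to 0.55), 75.8 and 57.8 CPM in microglia (0.39, 0.10 to 0.68), and 223 and 179 CPM in neurons (0.32, 0.11 to 0.53). Ubqln2, a shuttle that brings ubiquitinated proteins to the cap, had 116 CPM in GlaKO and 77.8 CPM in wt neurons (0.57, 0.27 to 0.88). Pomp, which matures the core, had 522 CPM in GlaKO and 506 CPM in wt choroid plexus (0.04, -0.01 to 0.10). Ubb, a ubiquitin gene, had 5500 CPM in GlaKO and 5524 CPM in wt choroid plexus.

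Signs of handling and of RNA from other cells differed between the libraries beside these values. Heat-shock genes, 13 in the list, had summed log2 ratios between 0.02 in T cells and 0.43 in choroid plexus, with 10721 CPM in GlaKO and 7948 CPM in wt there. Mitochondrial transcripts in choroid plexus had 15605 CPM in GlaKO and 24752 CPM in wt, a ratio of -0.67. The 12 oligodendrocyte markers had 1763 CPM in GlaKO and 704 CPM in wt T cells, 1717 and 822 CPM in astrocytes, 1240 and 625 CPM in neurons, and 1096 and 588 CPM in microglia. Choroid plexus markers, 11 in the list, went the other way, with 92.4 CPM in GlaKO and 255 CPM in wt microglia, 110 and 336 CPM in neurons, 151 and 304 CPM in astrocytes, and 116 and 206 CPM in T cells. T cell markers, also 11, had 73.7 CPM in GlaKO and 16.7 CPM in wt astrocytes. The 4 erythroid markers were higher in GlaKO in each of the 7 classes, with summed log2 ratios from 1.53 in choroid plexus to 2.37 in astrocytes. Immediate-early genes, 13 in the list, had median log2 ratios from -0.11 in precursors to 0.43 in choroid plexus. The 7 border macrophage markers had 939 CPM in GlaKO and 220 CPM in wt microglia. Marker sums of a class in its own cells were close, with log2 ratios from -0.13 in choroid plexus to 0.27 in neurons. The part of these differences in the members' ratios was not tested.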

How the data were processed

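Single-cell RNA of the hippocampus was measured with the 10x 3' v3.1 kit in 1 GlaKO and 1 wt library, 57 weeks of age, with 10000 cells loaded each. The deposited values are raw UMI counts per gene and cell barcode; per the submitters' processing notes they came from work that used mm10, Seurat 4, R 4.1.3 and Cell Ranger 6.0.1, with no role stated. The authors' matrices hold 4572 GlaKO and 5443 wt barcodes with 29914106 and 31929688 UMIs, at least 988 genes per GlaKO barcode, and 13154 GlaKO and 13008 wt genes. A doublet caller marked 70 GlaKO (1.53%) and 25 wt barcodes (0.459%); under 0.5% cannot be said to have worked. Both libraries were clustered together (scanpy 1.11.5, igraph 0.11.9, 2000 variable genes without members and interferon genes, 30 components, 15 neighbours, Leiden resolution 1.0), and clusters were named from marker lists; 1 cluster of 60 GlaKO and 66 wt cells stayed unnamed. UMIs were summed per library and class. Ratios have exact conditional, levels exact Poisson and shares Clopper-Pearson 95% intervals (scipy 1.17.1). A gene was compared with 100 summed UMIs or more. TMM factors came from edgeR 4.0.16 in R 4.3.3. No test between genotypes exists with 1 library each. Named with values were the catalytic and activator subunits, the 3 highest and 3 lowest ratios per class, and the highest and lowest member per role; other named members were chosen after their values were seen. Members and lists were chosen with earlier results of these data known. The scripts were tested on simulated data. Alternatives were other clusterings, scalings, doublet rules, UMI minimums, cluster and depth weights, thinning, and leaving out the top cell. Some genes of the lists are not reported here.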

Additional observations from a re-analysis of the deposited data

How the results depend on the processing

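No paired analysis was possible because each genotype is 1 library and the labels give no shared replicate numbers. Without replicates, no setting can show how far a ratio would vary between animals. Counts of members at least 25% higher or 20% lower in GlaKO rest on few genes, and the settings changed them most; the cause was not tested.
With cells thinned to 1000 UMIs, the immunoproteasome percent was 3.81 in GlaKO choroid plexus, 52.2 in GlaKO microglia, 2.78 in GlaKO and 1.24 in wt oligodendrocytes, and 85.2 in GlaKO and 76.5 in wt T cells. The trio's log2 ratio in oligodendrocytes was then 1.054, the neuron median -0.186, and Psma5 in T cells reversed to -0.084. Thinned counts of higher members were 3 in choroid plexus, 3 in microglia, 2 in neurons, 5 in oligodendrocytes, 6 in precursors and 6 in T cells. Thinned counts of lower members were 9 in astrocytes, 4 in choroid plexus, 10 in microglia, 9 in neurons, 3 in oligodendrocytes, 6 in precursors and 8 in T cells. The minimum for a comparison was then 20 summed UMIs. Members compared were 44 in choroid plexus, 44 in oligodendrocytes, 42 in precursors and 43 in astrocytes. They were 45 in microglia, 33 in T cells and 38 in neurons. Among all genes at that setting 20.3% to 28.4% were higher and 13.9% to 22.6% lower, so calls were more frequent in general.
With equal cluster weights, the wt neuron percent was 6.44, the precursor median -0.161, higher members 7 in microglia and 1 in precursors, and lower members 10 in microglia and 4 in precursors (20% and 11% of all genes higher, 20.6% and 9.37% lower). With equal weights over 5 parts of depth, medians were -0.058 in choroid plexus, -0.148 in neurons and -0.171 in precursors. Higher members were then 2 of 38 in astrocytes, 2 of 44 in choroid plexus and 2 of 46 in microglia. Among all genes, 12%, 22.3% and 10.4% were higher in these classes. Lower members were 3 in astrocytes, 1 in choroid plexus, 1 in microglia, 5 in neurons, 5 in precursors and 2 in T cells. In these 6 classes 7.09% to 12.6% of all genes were lower.
A minimum of 20 UMIs gave 2 of 46 higher members in choroid plexus, 2 of 46 in oligodendrocytes and 8 of 46 in T cells. Among all genes at that minimum, 20.5%, 11.6% and 27.5% were higher there. Lower were 2 of 45 members in astrocytes, 1 of 46 in choroid plexus and 4 of 46 in T cells. Among all genes, 14.8%, 10.7% and 15.7% were lower there. A minimum of 500 gave an astrocyte median of -0.134 and no T cell value. Higher members were then 0 of 6 in astrocytes, 0 of 29 in microglia and 1 of 17 in precursors. Among all genes, 4.22%, 4.17% and 5.52% were higher there. Lower members were 0 of 6 in astrocytes, 1 of 26 in neurons and 0 of 17 in precursors. Among all genes, 3.14%, 3.83% and 2.34% were lower there.
TMM scaling moved the T cell and choroid plexus ratios by -0.056 and -0.082 and those of the other 5 large classes by less. It gave a choroid plexus median of -0.066 and 2 of 33 lower members in T cells (10.4% of all genes). Without doublet removal there were 2 of 39 lower members in astrocytes, 1 of 42 in precursors and 2 of 34 in T cells. Among all genes, 8.4%, 7.74% and 6.88% were lower there. Leaving out the top 4% of doublet scores gave a choroid plexus median of 0.049, with 128 GlaKO and 498 wt cells in unnamed clusters. There were 2 of 44 higher members in choroid plexus and 2 of 33 lower in T cells (18.8% and 8.39% of all genes). Totals without mitochondrial, ribosomal and haemoglobin UMIs gave 1 higher and 3 lower of 33 members in T cells (13.4% and 12% of all genes). Without the top cell per gene, 1 of 41 members was lower in precursors and 0 of 32 in T cells. Among all genes, 7.09% and 7.64% were lower there. Leiden resolution 0.5 gave 1 of 46 lower members in microglia (9.13% of all genes). Clustering each library alone gave 2 of 44 higher members in neurons (12.3% of all genes). Taking the top 25% of cells by interferon share gave trio ratios of 0.407 in GlaKO and -0.044 in wt microglia and 0.312 in GlaKO and 0.189 in wt T cells, and both wt intervals included 0. Psmc1 was higher in GlaKO under every setting in the 6 classes compared, from 0.253 to 1.337.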
